A study of Mus musculus with 16 samples.

Results

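Brca1, Brca2, Dmc1, Meiob, Atm, Msh4, Msh5 and Mlh3, genes of meiotic recombination and DNA double-strand break repair, were followed in RNA from mouse testis that had been separated with J2, a monoclonal antibody to double-stranded RNA. They were chosen by name and function, with earlier results of these data known, and all 8 were found among the 35920 genes of the authors' table of normalized counts. RNA bound by J2 (J2) and RNA left unbound (flow-through) were sequenced apart, in 16 libraries of 6 groups. The wild-type mice of postnatal day 18 (P18) and those of genotype Dcr-/- of the same age (labelled a Dicer knock-out) came from C57BL/6 x 129S4/SvJae mice, with 3 libraries per genotype and fraction. Dicer is the ribonuclease that processes double-stranded RNA, among it the precursors of microRNAs. Adult testis was labelled wild type with the strain given as unknown and had 2 libraries per fraction, so age and strain cannot be told apart. All libraries, flow-through included, came from RNA treated with the antibody, and per the labels the flow-through RNA had been freed of rRNA and of double-stranded RNA. The labels do not give the driver or the cell type of the Dicer deletion, nor whether replicates were separate animals. The p-values here measure how far these samples spread, and that spread may be technical.

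Meiotic recombination starts when programmed double-strand breaks are made in the DNA of spermatocytes, the germ cells in meiosis. ATM, a protein kinase, signals the breaks and limits their number. BRCA1, a ubiquitin ligase with its partner BARD1, acts in break signalling and repair, and BRCA2 helps to load DMC1 onto single-stranded DNA. DMC1, the recombinase specific to meiosis, carries out strand exchange with the homologous chromosome, and MEIOB is a single-stranded DNA-binding protein that stabilizes these intermediates. The MutS proteins MSH4 and MSH5 form a dimer that holds recombination intermediates, and MLH3 is the endonuclease subunit that acts in turning them into crossovers. Male mice that lack Dmc1, Meiob, Atm, Msh4, Msh5 or Mlh3 are sterile.

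Of the 6 genes tested between the genotypes in flow-through, Brca2 (-3.31 on the log2 scale) was lowest and Msh5 (2.26) highest, neither past the threshold. Msh5 entered that test through knock-out flow-through alone, so the filter favoured its positive estimate. The order served only to pick promoters to print, and a link between motifs and these values was not tested. The 250 bases before an annotated start of Brca2 and of Msh5 are shown (RefSeq, GRCm38.p6, the assembly named mm10). Both windows lie inside the gene spans printed below, so these starts are not the outermost ends of the genes. Distances are counted from the start used for each window. The Brca2 sequence is chr5:150522371-150522620 on the plus strand and the Msh5 sequence is chr17:35046623-35046872 on the minus strand, both written 5′ to 3′ along the gene. Capitals mark matches to the cAMP response element, TGACGTCA, and to an E2F motif.
Brca2: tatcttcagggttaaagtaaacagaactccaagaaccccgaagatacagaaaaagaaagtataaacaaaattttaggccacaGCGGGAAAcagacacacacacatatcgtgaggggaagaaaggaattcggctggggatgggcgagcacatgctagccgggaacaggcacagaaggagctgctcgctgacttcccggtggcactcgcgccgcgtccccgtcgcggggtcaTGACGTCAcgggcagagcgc
Msh5: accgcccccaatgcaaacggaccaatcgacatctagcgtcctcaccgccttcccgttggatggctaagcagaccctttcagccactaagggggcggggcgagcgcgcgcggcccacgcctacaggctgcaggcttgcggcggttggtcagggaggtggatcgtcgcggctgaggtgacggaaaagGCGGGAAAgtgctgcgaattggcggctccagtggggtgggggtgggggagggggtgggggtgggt
In Brca2 the cAMP response element lay 20 to 13 bases before the start, and the E2F match GCGGGAAA lay 168 to 161 bases before it. In Msh5 the E2F match GCGGGAAA lay 65 to 58 bases before the start. Promoters were found for 7 of the 8 genes (not Meiob). The motifs were chosen after the promoters had been seen and were searched on both strands. TGACGTCA was in 1 of the 7 genes and in 1.55% of all 32851 promoters. An E2F match (TTTCCCGC, TTTCGCGC, TTTGCCGC or TTTGGCGC) was in 2 of 7 and in 1.86%. The element's shorter form TGACG, which TGACGTCA contains, was in 3 of 7 (Brca1, Brca2, Msh5) and in 17.8%. CCAAT was in 4 of 7 (Atm, Brca1, Mlh3, Msh5) and in 33.8%, and a MYB motif (TAACNG or CAACNG) in 2 of 7 (Msh4, Msh5) and in 43.1%. The Brca2 sequence was 54.4% GC and the Msh5 sequence 67.2%, against a median of 52.4% for all promoters. The matches are letters found in a window, and binding was not measured.

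Dicer1, the targeted gene, was at 0 in 7 of the 16 libraries and at most at 13.7 normalized counts, too low to check the genotype labels. The 8 genes too were weakly covered, and the coverage differed between the fractions. The normalized counts of a flow-through library summed to between 6.05 and 34.9 M units (M, 1e+06), and those of a J2 library to between 0.446 and 0.824 M units. The worth of a single read lay near 2 to 8.31 units for flow-through and 0.116 to 0.516 units for J2. A value of 10 was thus some 1.20 to 4.99 reads of a flow-through library but 19.4 to 86.3 reads of a J2 library. A value of 0 allowed up to 3 reads, which is 6.01 to 24.9 units in flow-through and 0.348 to 1.55 in J2, for counting error alone. Of the 64 values of the 8 genes in flow-through, 18 were at 0 and 41 stood for 3 reads or fewer. Without Brca2, no flow-through value exceeded 12.9 reads. In J2, 22 of 64 values were at 0 and 27 stood for 3 reads or fewer. Adult J2 replicate 2 stood apart, with 22683 genes above 0 (the next J2 library had 11591), and all 8 genes were above 0 in it. The adult J2 comparisons are given with and without it. In bulk RNA, fewer cells of a type and less RNA per cell cannot be told apart.

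Brca2 was the member with the clearest pattern (ENSMUSG00000041147, chromosome 5, 150522297 to 150570147). In flow-through its normalized counts were 107, 77.9 and 148 in wild-type P18, 8.42, 11.6 and 9.88 in the knock-out, and 0 and 23.1 in adults. In J2 they were 0, 0 and 1.85 in wild-type P18, 22.9, 7.25 and 0 in the knock-out, and 0 and 43.8 in adults. The 3 wild-type P18 flow-through libraries were above every other library of the series, and the group's mean of 110.9 ± 35.1 (SD, n = 3) compared with 9.96 ± 1.58 (SD, n = 3) in knock-out flow-through. These wild-type values stood for about 18.0, 38.9 and 17.8 reads and the knock-out values for about 1.04, 5.68 and 3.57 reads. The high J2 values rested on more reads, about 104.5 and 28.4 in the knock-out and 378.3 in adult replicate 2. In the order of the group means, wild-type flow-through was apart from the next group and wild-type J2, the lowest, was apart from knock-out flow-through. The 4 groups between them (adult J2, adult flow-through, knock-out J2 and knock-out flow-through) overlapped with their neighbours. How many of all genes have such an order was not counted, so the order is not read as particular to Brca2. The annotated gene also spans the long noncoding RNA gene Gm42529, which did not exceed 1.16 normalized counts in any library.

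**Figure D1:**
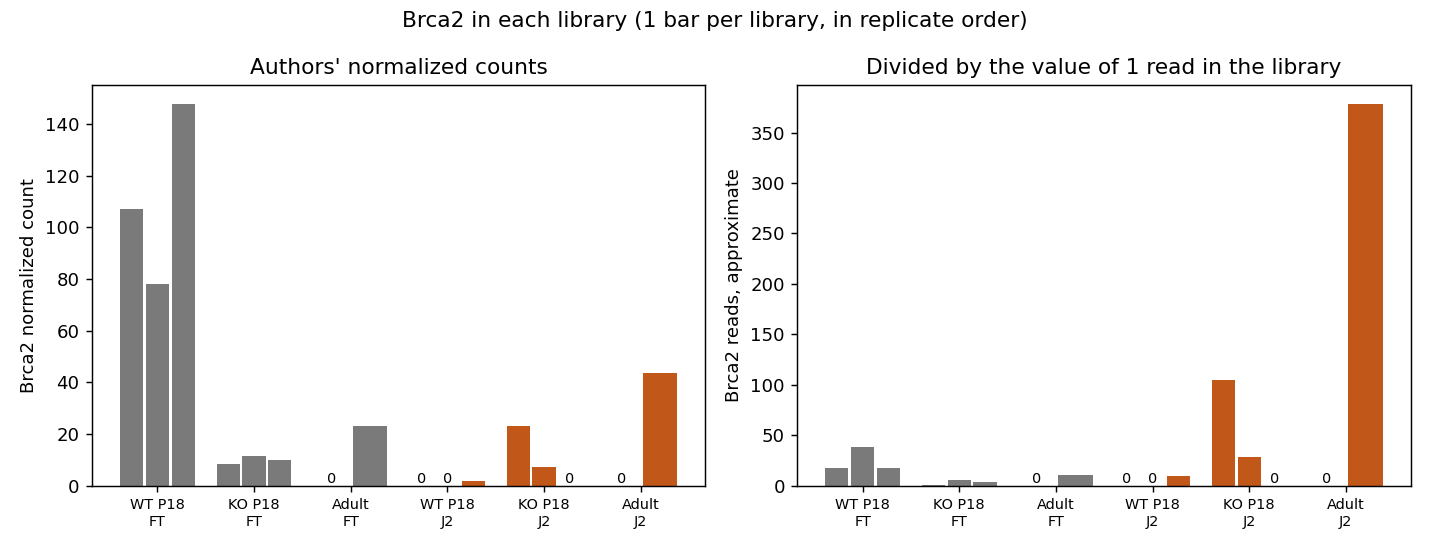
Brca2 in the 16 libraries, 1 bar per library in replicate order, grey for flow-through (FT) and orange for J2. The left panel gives the authors' normalized counts (0 to 148) and the right panel the approximate number of reads behind them (0 to 378.3). The 3 tall flow-through bars of wild-type P18 on the left rest on 17.8 to 38.9 reads.

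Atm (ENSMUSG00000034218, chromosome 9, 53437122 to 53536828) was found at low and uneven levels in all 6 groups. In flow-through it was at 2.93, 18.0 and 0 in wild-type P18, 6.57, 19.9 and 6.49 in the knock-out, and 0 and 27.6 in adults. J2 values of Atm were 0, 54.9 and 0 in wild-type P18, 14.9, 0.418 and 3.33 in the knock-out, and 0 and 24.6 in adults. The highest value of the gene came from 1 wild-type J2 library whose replicates were both at 0. The group means ran from 6.21 ± 7.65 (SD, n = 3) in knock-out J2 to 18.3 ± 31.7 (SD, n = 3) in wild-type J2, and each group overlapped with the next in order.

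Among the genes of strand invasion other than Brca2, Brca1 (ENSMUSG00000017146, chromosome 11, 101488761 to 101551955) was high in single libraries only. In flow-through it was at 0, 16.9 and 0 in wild-type P18, 0, 13.6 and 2.05 in the knock-out, and 7.75 and 0.742 in adults. J2 values of Brca1 were 0, 0 and 0.323 in wild-type P18, 6.61, 2.25 and 0.293 in the knock-out, and 1.45 and 21.5 in adults. The lowest group was wild-type J2 and the highest adult J2, through replicate 2. Dmc1 (ENSMUSG00000022429, chromosome 15, 79561497 to 79605159) was at 0, 2.51 and 8.32 in wild-type, 0, 2.57 and 14.6 in knock-out and 5.83 and 1.58 in adult flow-through. In J2 it was at 0, 0 and 0.659 in wild-type P18, 24.2, 10.7 and 4.75 in the knock-out, and 0 and 6.05 in adults. All 3 knock-out J2 libraries were above all 3 wild-type J2 libraries, while the flow-through groups overlapped. Meiob (ENSMUSG00000024155, chromosome 17, 24804301 to 24839788) was at 19.0, 7.99 and 13.4 in wild-type, 0, 12.2 and 18.0 in knock-out and 0 and 3.92 in adult flow-through. J2 values of Meiob were 0, 0 and 15.1 in wild-type P18, 0.119, 0.917 and 0 in the knock-out, and 3.46 and 6.54 in adults. It was above 0 in every wild-type P18 flow-through library, and both adult flow-through libraries were below all 3 of them. Its last 8 bases overlap with Hagh, which reached 129.3 normalized counts.

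The crossover genes had their highest values in different groups. Msh4 (ENSMUSG00000005493, chromosome 3, 153857141 to 153906138) was at 0, 5.69 and 18.2 in wild-type, 0, 3.84 and 9.55 in knock-out and 0 and 9.94 in adult flow-through. In J2 it was at 10.4, 1.21 and 3.36 in wild-type P18, 0.994, 6.83 and 7.65 in the knock-out, and 48.2 and 8.04 in adults. Msh4 was above 0 in all 8 J2 libraries, and the only value above 20 was adult J2 replicate 1. Its dimer partner Msh5 (ENSMUSG00000007035, chromosome 17, 35028605 to 35046997) was at 0, 4.05 and 1.03 in wild-type, 40.8, 0.745 and 14.3 in knock-out and 0 and 0 in adult flow-through. Msh5 in J2 was at 0, 2.71 and 0 in wild-type P18, 0 in all 3 knock-out libraries, and 0 and 1.21 in adults. Msh5 reached 10 only in 2 knock-out flow-through libraries, where 40.8 and 14.3 units stood for about 5.03 and 5.19 reads. The long noncoding RNA gene Gm52318 overlaps Msh5 over 1765 bases and was not found under that name among the genes counted. Mlh3 (ENSMUSG00000021245, chromosome 12, 85234466 to 85270647) was at 0, 12.8 and 8.65 in wild-type, 0, 13.4 and 12.8 in knock-out and 11.6 and 2.95 in adult flow-through. In J2 it was at 9.0, 0.298 and 0 in wild-type P18, 29.8, 3.49 and 7.18 in the knock-out, and 58.7 and 26.9 in adults. Adult J2, at 42.8 ± 22.5 (SD, n = 2), was the highest group, and both of its libraries were above both adult flow-through libraries. For the 7 genes other than Brca2, every group's range overlapped with that of the next group in the order of the means. The share of all genes for which this holds was not counted. No member reached 10 normalized counts in at least 8 libraries (the most was 7), the level set for naming genes with a like pattern, so none is named.

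**Figure D2:**
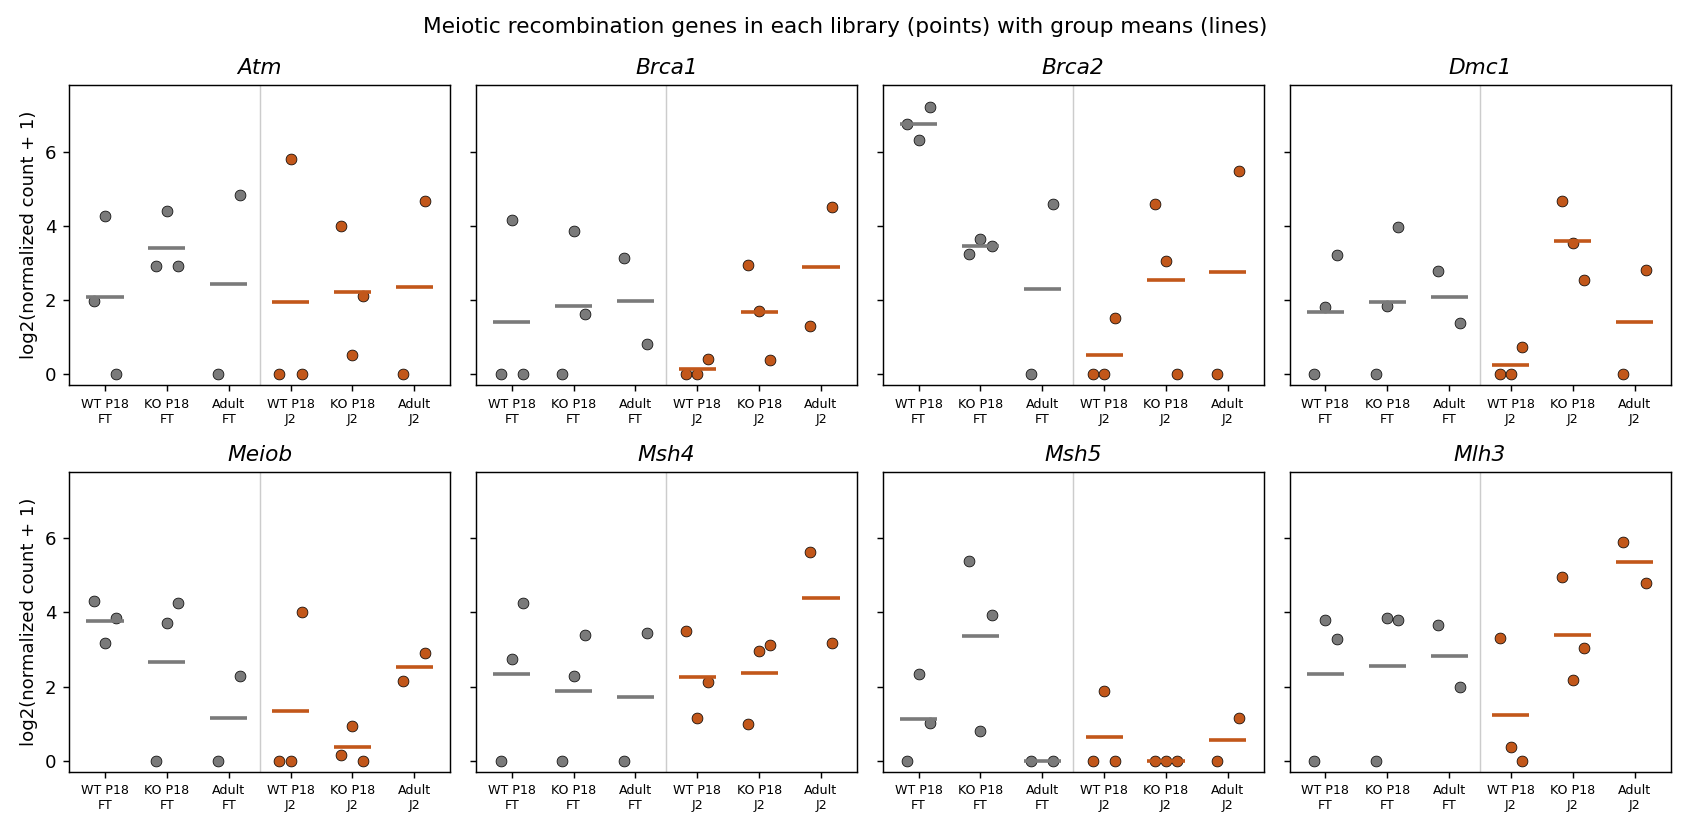
The 8 genes in each library as log2(normalized count + 1) on the vertical axis, with a point per library and a line at the group mean (flow-through, FT, in grey; J2 in orange). Brca2 in wild-type P18 flow-through is the only group whose points all lie above 6. For the other 7 genes, groups that follow each other in the order of their means, which is not the plotted order, overlap.

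The first comparison asked which transcripts were recovered with J2 rather than in flow-through. In wild-type P18 testis Brca2 was lower in J2, by a log2 difference of -6.26 (SE 1.46, adjusted p = 0.048) on the log2(value + 1) scale, and 0 of the 8 genes were higher. Of the 9526 genes tested 0.378% were lower and 0.525% higher. The call was lost when any 1 of the 6 libraries was left out (adjusted p = 0.066 to 0.14), with estimates between -6.76 and -6.00. It was also lost without the filter on low values (adjusted p = 0.11) and with the libraries scaled to a common total (-3.18, adjusted p = 0.14). Brca2 was also the only one of the 8 genes whose J2 libraries were all below the flow-through libraries, as were 8.3% of all genes tested. The next estimates were -2.44 for Meiob (SE 1.33, adjusted p = 0.43), -1.43 for Dmc1 (SE 1.24, adjusted p = 0.64) and -1.25 for Brca1 (SE 1.32, adjusted p = 0.72). Mlh3 (-1.12), Msh5 (-0.49), Atm (-0.14) and Msh4 (-0.07) were nearer to 0. All 8 estimates were below 0, with a median of -1.19 against -0.05 for all genes, but 4 of 8 were below 0 without flow-through replicate 2. With the common total 3 of 8 were below 0, and the median of all genes moved to 1.87. Fractions are thus compared relative to the median gene and not as amounts of RNA.

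In the knock-out, 0 of the 8 genes passed between J2 and flow-through, where 0.357% of all genes did. Brca2 differed by -0.90 (SE 1.46, adjusted p = 0.87). The 3 knock-out J2 libraries, all at 0 for Msh5, were below the 3 flow-through libraries, as were those of 11.1% of all genes. Msh5 entered the test through knock-out flow-through alone, so the filter favoured lower J2 values and nothing more is read from this order. Against 3 reads per J2 library, a mean of 0.99 units, the Msh5 flow-through mean of 18.6 ± 20.3 (SD, n = 3) was 18.8-fold. The flow-through values stood for about 5.03, 0.366 and 5.19 reads, and this ratio leaves out their counting error. It was 7.62-fold without flow-through replicate 1, 27.8-fold without replicate 2 and 20.95-fold without replicate 3. Flow-through replicate 2, at 0.745, was itself under the 0.99 units, and the limma test did not pass (adjusted p = 0.19). Dmc1 (1.64, SE 1.24), Mlh3 (0.84, SE 1.39) and Msh4 (0.47, SE 1.40) had estimates above 0, all within 1.5 SE. Meiob (-2.29, SE 1.33), Atm (-1.20, SE 1.76) and Brca1 (-0.16, SE 1.32) were below 0. Of the 8 estimates 5 were below 0, with a median of -0.53 against -0.15 for all genes. The genotype by fraction interaction was 5.35 for Brca2 (SE 2.07, unadjusted p = 0.018, adjusted p = 0.99) and 3.08 for Dmc1 (SE 1.76, adjusted p = 0.996), and 0 genes of the whole table passed it (455 at an unadjusted p under 0.05). That the Brca2 call was made in wild type and not in the knock-out is therefore not shown to be a difference between the genotypes.

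In adults 0 of the 8 genes passed, where 0.315% of all genes did. The largest estimates were those of the crossover genes Msh4 (2.67, SE 1.72, adjusted p = 0.83) and Mlh3 (2.53, SE 1.71, adjusted p = 0.84). Without adult J2 replicate 2 they were 3.90 (SE 2.12, adjusted p = 0.56) and 3.08 (SE 2.18, adjusted p = 0.64), and 0 of the 8 passed. Mlh3 was the only member with both J2 libraries above both flow-through libraries, as were 18.4% of all genes. Brca2 differed by 0.45 (SE 1.79, adjusted p = 0.98), and by -2.30 (SE 1.98, adjusted p = 0.72) without that library. The median of the 8 estimates was 0.75, with 6 above 0, and -0.34, with 3 above 0 and 4 below, without it (all genes 0.05 and -0.53). The age by fraction interaction was above 0 for all 8 genes, with a median of 2.46 against 0.06 for all genes, of which 51.1% were above 0. Leaving out adult J2 replicate 2, it was above 0 for 6 of 8, with a median of 2.02. It was largest for Brca2 (6.70, SE 2.31, unadjusted p = 0.0091, adjusted p = 0.79), followed by Meiob (3.83) and Mlh3 (3.65), and 0 genes of the whole table passed it (514 at an unadjusted p under 0.05). These differences use the wild-type P18 libraries that also gave the first comparison.

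**Figure D3:**
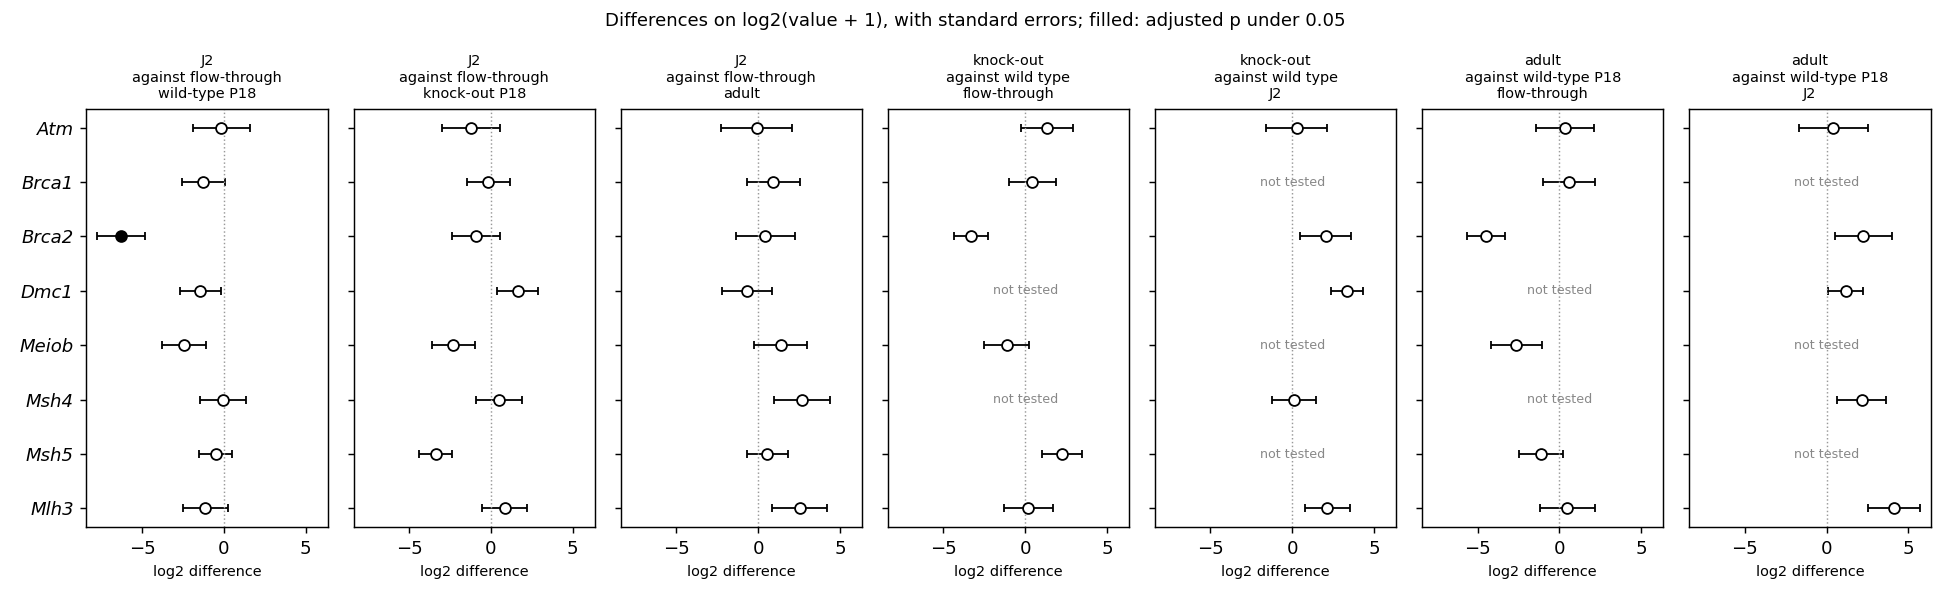
Log2 differences of the 8 genes on log2(value + 1) in 7 comparisons, named above each panel, with bars of 1 standard error and a filled point where the adjusted p is under 0.05. Only Brca2 in wild-type P18, at -6.26, is filled. Genes that did not reach a value of 10 in 2 of the libraries fitted are marked as not tested.

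The second comparison asked what differed in testis labelled Dicer knock-out. In flow-through 6 of the 8 genes could be tested (not Dmc1 and Msh4) and 0 passed, as was so for all 7141 genes tested (436 at an unadjusted p under 0.05). Brca2 was at -3.31 (SE 1.05, unadjusted p = 0.010, adjusted p = 0.79), and its 3 knock-out libraries were below the 3 wild-type libraries, as were those of 3.04% of all genes. Msh5, which entered the test through knock-out flow-through alone, was at 2.26 (SE 1.21, adjusted p = 0.81) and Meiob at -1.12 (SE 1.37, adjusted p = 0.90). The summed level of 10 spermatocyte markers, 593 to 721 in wild type and 626 to 861 in the knock-out, overlapped between these groups, and 0 of the 10 passed the test (Spag6 was at 0 in all knock-out libraries). That of 9 Sertoli cell markers, 196 to 244 and 307 to 369, did not overlap, with Amh at 0 in every library of both groups and 0 of 8 tested markers past the threshold. Its part in the Brca2 values was not tested.

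In J2, 5 genes could be tested between the genotypes (not Brca1, Meiob and Msh5) and 0 passed, again as for all genes (6882 tested, 440 at an unadjusted p under 0.05). Dmc1 was at 3.33 (SE 0.98, unadjusted p = 0.0069, adjusted p = 0.69). It reached 10 in J2 in knock-out libraries alone and entered the test through them, so the filter favoured a positive estimate. It was the only member with all knock-out libraries above all wild-type ones, as were 6.12% of all genes. Mlh3 (2.15, SE 1.40) and Brca2 (2.04, SE 1.56) followed, and Atm and Msh4 were near 0. Here the summed spermatocyte markers were at 1298 to 2196 in wild type and 792 to 1313 in the knock-out, and the summed spermatogonial markers at 35.4 to 81.7 and 117 to 171. The spermatogonial sums did not overlap, with Gfra1 at 0 in both groups and Sohlh1 in the knock-out, and 0 of 4 tested markers passed. Their part in the Dmc1 values was not tested.

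The third comparison set adult against wild-type P18 testis. In flow-through 0 of 6 genes passed, where 3.23% of all genes did. Brca2 had the smallest p, at -4.46 (SE 1.17, unadjusted p = 0.0035, adjusted p = 0.090), and Meiob was at -2.63 (SE 1.54, adjusted p = 0.59). For these 2 genes both adult libraries were below the 3 P18 libraries, as were those of 8.57% of all genes. The Brca2 result depended on which adult library was kept. It was -6.76 with an adjusted p of 0.029 without adult flow-through replicate 2, and -2.17 with an adjusted p of 0.99 without replicate 1. In J2, 0 of 5 genes passed, where 5.46% of all genes did. Mlh3 was at 4.12 (SE 1.56, adjusted p = 0.25), Brca2 at 2.24 (SE 1.74) and Msh4 at 2.14 (SE 1.5). Without adult J2 replicate 2, Mlh3 was at 4.67 (SE 2.44, adjusted p = 0.67) and Msh4 at 3.36 (SE 2.45, adjusted p = 0.75), Brca2 could not be tested, and 0 of 4 genes passed. Genes higher in adult J2 then numbered 1 of 5983, against 349 of 6882 with it. Both adult J2 libraries were above the P18 ones for Brca1 and Mlh3, as were those of 18.7% of all genes. Markers of spermatids, the cells after meiosis, rose in adults (9 of 9 tested in flow-through and 10 of 10 in J2, where none could be tested without adult replicate 2). They summed to 8.87 to 13.9 in P18 flow-through, with 5 of 10 at 0 (Acrv1, Odf1, Spaca1, Tnp1 and Tssk6), and to 2622 to 3075 in adult flow-through. In J2 they summed to at most 2.45 in wild-type and 2.22 in knock-out P18, and to 1867 to 2133 in adults. They thus entered the J2 test through adults alone. The filter fixed the direction in J2 and favoured it in flow-through, so the rise is read from the sums and not from the calls. The spermatocyte sums overlapped (593 to 721 and 605 to 1086), with 1 of 10 markers higher in adults (Spag6). Blood and macrophage markers summed to 169 to 173 at P18 and 23.0 to 24.1 in adult flow-through, where 2 of 3 tested fell (Hbb-bs and Hba-a1), and 1 of 3 (Hbb-bs) fell in J2. In J2 the sums of peritubular myoid (69.6 to 119 and 9.77 to 11.6) and spermatogonial markers (35.4 to 81.7 and 11.4 to 17.4) did not overlap either, and 0 of them passed. The part of the cell mixture in the values of the 8 genes was not tested.

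Another 79 genes of the same pathway were read from the table, listed by role, with earlier results of these data known. Ankrd31 and Spata22 were listed and not found under those names. The 79 were 9 genes of break formation, 17 of sensing, resection and signalling, 28 of strand invasion and 25 of crossover formation. Between J2 and flow-through 49 of them could be tested, and 0 passed in wild type or adults. In the knock-out 1 of 49 was higher and 0 lower, where 0.168% of all genes were higher. The median log2 difference of the 49 was 0.06 in wild type (all genes -0.05), -0.02 in the knock-out (all genes -0.15) and -0.12 in adults (all genes 0.05). The negative median of the 8 genes in wild type was thus not seen over the longer list. Between the genotypes 0 of 41 passed in flow-through and 0 of 37 in J2, with medians of 0.65 (all genes 0.33) and 0.72 (all genes 0.13). Between adult and P18, 0 of 41 and 0 of 37 passed, with medians of 0.10 (all genes 0.28) and 0.06 (all genes 0.33). Both interactions had 0 of 49.

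The gene that passed was Rpa3, the smallest subunit of the single-stranded DNA-binding complex RPA, which coats single-stranded DNA before strand exchange. It was at 19.3, 15.5 and 13.1 in knock-out J2, at 0, 0.254 and 0 in wild-type J2, at 0 and 1.66 in adult J2, and listed at 0 in all 8 flow-through libraries. The knock-out J2 libraries were above the other J2 libraries, while a flow-through value of 0 allowed up to 24.9 units. Rpa3 entered the test through knock-out J2 alone and so had to be higher there, and nothing more is read from its call. Its fitted log2 difference between knock-out J2 and knock-out flow-through, which is no bound, was 4.07 (SE 0.63, adjusted p = 0.0023), and 4.07 with an adjusted p of 0.15 when the 2 groups were fitted alone. Against 3 reads per flow-through library, a mean of 12.9 units (6.12 to 24.3), the knock-out J2 mean of 16 ± 3.1 (SD, n = 3) was 1.24-fold. In flow-through replicate 1 that level, 24.3 units, was above all 3 J2 values, so a higher level in J2 is not shown. The tests between genotypes were entered through knock-out J2 alone as well. In J2 the difference was 3.96 (SE 0.74, adjusted p = 0.63), and the genotype by fraction interaction was 3.96 (SE 0.90, adjusted p = 0.94).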

How the data were processed

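The deposited values are normalized counts, a signal for each Ensembl gene in each library that the authors had already scaled between libraries. The submitters' processing notes name FastQC, Trimmomatic, Salmon, DESeq2 and mm10, with no version or role. Per the labels, libraries were made with a strand-specific kit (NuGEN Ovation SoLo). Of 35920 gene identifiers 35446 matched a symbol, and 0 columns were left unmatched. The worth of 1 read was approximated from values that genes share and their multiples (up to 20, tolerance 1e-06), so read numbers are approximate.

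Values were tested as log2(value + 1), which understates the change of low genes, with limma 3.58.1 under R 4.3.3, by linear models and moderated variances that follow a mean trend. Tests were two-sided with Benjamini-Hochberg adjustment over all genes tested and a threshold of 0.05. Only genes with 10 or more units in 2 or more of the libraries entering a fit were tested. J2 against flow-through and the interactions were fitted over all 16 libraries, and genotypes and ages within a fraction over its 8 libraries. The tests were checked on simulated data, where most of the changes put in were missed, so a gene that did not pass may still differ. All 8 genes are named in every comparison, and pathway genes only where they passed (at most 5 per direction). The genes and lists were chosen with earlier results of these data known. Transcript lengths were not used, so levels are not compared between genes. The alternatives tried were another pseudocount, other filters and scalings, the compared groups alone, a block for the library code and leaving out each library. The common total was summed over all genes but those encoded in mitochondria. Its second form also left out every gene among the 10 highest of any library.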

Additional observations from a re-analysis of the deposited data

How the results depend on the processing

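Of 808 values of the 8 genes under alternatives, 694 kept their direction and side of the threshold, 96 changed sign with neither value past it, 10 lost a call, 8 gained one and 0 reversed a call. In wild-type P18 the count of genes lower in J2, 1 (Brca2), was 0 without a filter on low values (Brca2 adjusted p = 0.11) and with a common total of 1e+06 (-3.18, adjusted p = 0.14). It was also 0 with that total without the 10 highest genes of each library (-8.14, adjusted p = 0.088) and with the replicate block (-6.26, adjusted p = 0.053). On leaving out 1 library it was 0 to 0. The Brca2 call held with a pseudocount of 10 (-3.47, adjusted p = 0.011), a filter of 50 (adjusted p = 0.027), quantile normalization (-6.44, adjusted p = 0.030) and the compared groups alone (adjusted p = 0.016). With the common total the genes higher in J2 went from 0 to 1 in the knock-out (Dmc1, 3.47, adjusted p = 0.017) and from 0 to 3 in adults (Brca1 3.33, Msh4 4.96 and Mlh3 5.70). The median of all genes moved with it to 2.16 and 2.74. Genes lower in J2 in the knock-out were 0 to 1 on leaving out 1 library (Msh5, -4.66, adjusted p = 0.047, without flow-through replicate 2). Msh5 entered that test through knock-out flow-through alone, so the filter favoured a negative estimate. For adult against P18 flow-through the lower count, 0, was 1 (Brca2) with a pseudocount of 10 (-2.69, adjusted p = 0.026) and with the common total (-3.12, adjusted p = 0.031), and 0 to 1 on leaving out 1 library. Depth limits the 7 other genes in flow-through, where 39 of 56 values stood for 3 reads or fewer.

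In the table a code is common to 1 flow-through and 1 J2 library. Libraries with the same code did not deviate together from their group means (correlations across genes from -0.0264 to 0.0306). With 2 or 3 libraries per group and few reads per gene in flow-through, these correlations cannot show whether a code marks a single sample. The code was therefore used only as an alternative. With the code as a replicate block, genes higher and lower in J2 in wild-type P18 fell from 50 and 36 to 7 and 17 in the whole table, and those higher fell from 16 to 4 in the knock-out and from 14 to 2 in adults. Over all genes in wild-type P18 the counts were 2562 and 13 with the common total, 93 and 60 with a filter of 50, 19 and 21 without one, 23 and 24 with the compared groups alone, and 12 to 40 and 15 to 43 on leaving out 1 library. Over these alternatives the genes higher in J2 were 4 to 2848 in the knock-out (16) and 0 to 3460 in adults (14). Those higher in adults were 0 to 289 in flow-through (220) and 1 to 680 in J2 (349), and those past the age by fraction interaction up to 356 higher (0). A filter of 50, the compared groups alone and some omissions left members untested and gave no value for them.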
